A study of Saccharomyces cerevisiae with 593 samples.

Results

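The meiotic regulators IME1, RIM4, NDT80, MER1, MEK1 and SMK1 were chosen by gene symbol from the array's probe annotation. They were measured by 7 oligos, 1 for each gene except NDT80, which had 2 (called oligo 1 and oligo 2 here). These 7 oligos, on 42 spots, belong to 1457 oligos with a gene name, for 982 genes, and each oligo was spotted in 6 copies that were averaged.

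Budding yeast leaves the mitotic cycle for meiosis and spore formation when nutrients run out, and in cells growing in rich medium most of these genes are kept off. IME1 encodes the transcription factor that starts the programme, and RIM4 an RNA-binding protein that is needed for early meiotic expression and holds back translation of later transcripts. NDT80 encodes the transcription factor of the middle genes, MER1 a splicing activator for a small group of meiotic introns, MEK1 a kinase of meiotic recombination, and SMK1 a MAP kinase of spore wall formation.

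The study set RNA of Saccharomyces cerevisiae cultures under stress or depletion against RNA of control cultures on 593 2-colour splicing arrays, which held 311 array identifiers and 195 groups of the same strain, treatment, time and control. Each identifier is 1 replicate, and 282 identifiers had 1 array in each dye orientation. The wild type was exposed to 200 ng/mL rapamycin (an inhibitor of the TOR kinase), 50 mM 3-AT (3-aminotriazole, an inhibitor of histidine synthesis), 1 mg/mL wortmannin (a lipid kinase inhibitor), 20 uM TBB (an inhibitor of casein kinase 2) or 1 or 10 mM DTT (a reducing agent), each over cells taken before treatment. It was also set over untreated cells of the same time after 1 M KCl, 300 mM LiCl, 0.5 M NaCl, heat shock at 42 °C (with another course over untreated cells of time 0), 5 ug/mL SMM (sulfometuron methyl, an inhibitor of branched-chain amino acid synthesis), or medium without glucose, amino acids, nitrogen, inositol or phosphate. Histidine was removed from a his3 and a HIS3 strain, each over its own untreated cells. KCl was also given to hog1, rrp6, edc2 (without an activator of mRNA decapping) and ckb1ckb2 (without the regulatory subunits of casein kinase 2) deletion strains over their own untreated cells, and an rrp6 strain was set against the wild type under the same condition. 3-AT was also given to ckb1, ckb2 and ckb1ckb2 strains and SMM to cka1, cka2, ckb1 and ckb2 strains (cka1 and cka2 each lack a catalytic subunit of casein kinase 2), each over its own cells before treatment. Rapamycin was also given to the ckb1ckb2 strain over its own untreated cells. Agents given together kept these doses, and their controls are named beside their values. Cells were sampled at 5, 10, 20 and 40 min in most courses. The labels do not give mating type or ploidy, and they do not say whether replicates came from separate cultures. The p-values therefore measure spread between these samples, estimated for each oligo across all groups of the fit. A small p can thus stand beside a large SD within the group tested.

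Values are log2 ratios, treated over control, per identifier. The labels of 7 identifiers put the control in channel 1 (the wild type in rapamycin at 5, 10, 20 and 40 min, in nitrogen depletion at 20 and 40 min and in wortmannin at 5 min). Against the other replicates of their groups these identifiers correlated at -0.915 to -0.0854 over named oligos, so they were left out of the tests. A further 4 identifiers, of 3-AT with TBB over 3-AT in series E, also had the control in channel 1 and were turned and used. After turning, those at 5, 10 and 20 min correlated with the other identifier of their group at 0.784, 0.553 and 0.773, and the one at 40 min had no other to compare with. Of the spots on an array, between 0.0326% and 64.1% held no value, with a median of 4.64%. In the rrp6 strain over the wild type, the RRP6 oligo itself averaged -2.10 and was below 0 in 13 of 13 identifiers.

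The members differed in how well they were measured. MER1 had a value in 4.83 of 6 copies on average, and fewer copies were measured for 0.995% of named oligos. NDT80 oligo 1 had 5.23, NDT80 oligo 2 5.33, SMK1 5.35, IME1 5.59, MEK1 5.64 and RIM4 5.65 copies. The median standard deviation between copies on an array was 0.139 for MEK1, 0.156 for RIM4 and 0.17 for IME1, and it was 0.272 for NDT80 oligo 1, 0.285 for SMK1, 0.302 for MER1 and 0.311 for NDT80 oligo 2. IME1, RIM4 and MEK1 were thus measured in more copies, and more evenly, than the other members.

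RIM4, MEK1 and NDT80 oligo 1 also depended on the dye. With the treated RNA in Cy5, the ratio lay above the mean of both orientations by a median of 0.45 for MEK1, 0.39 for RIM4 and 0.34 for NDT80 oligo 1. The Cy5 orientation was the higher one in 272 of 280 pairs for MEK1, 269 of 281 for RIM4 and 234 of 279 for NDT80 oligo 1. Across all named oligos the 5th to 95th percentiles of this dye effect ran from -0.23 to 0.27. The other members lay inside that range, with 0.10 for NDT80 oligo 2, 0.08 for SMK1, -0.02 for MER1 and -0.04 for IME1.

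The arrays fall into 9 series by the first part of their identifier, here lettered A to I. In series B, which had 28 identifiers of 1 array each, the treated RNA was always in Cy5. There MEK1 was above 0 in 28 of 28 identifiers (0.12 to 2.75) and NDT80 oligo 1 in 28 of 28 (0.01 to 3.06), and 7.28% of named oligos were above 0 in as many. RIM4 was above 0 in 27 of 28. The series B means were 0.95 for NDT80 oligo 1, 0.92 for MEK1, 0.76 for RIM4, 0.28 for NDT80 oligo 2, 0.05 for IME1, -0.08 for SMK1 and -0.18 for MER1. The 3 oligos with the strong dye effect were the members with high means in series B. Over all 1457 oligos the dye effect and the series B mean had a Pearson correlation of 0.816, as a description across oligos that share arrays.

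**Figure D1:**
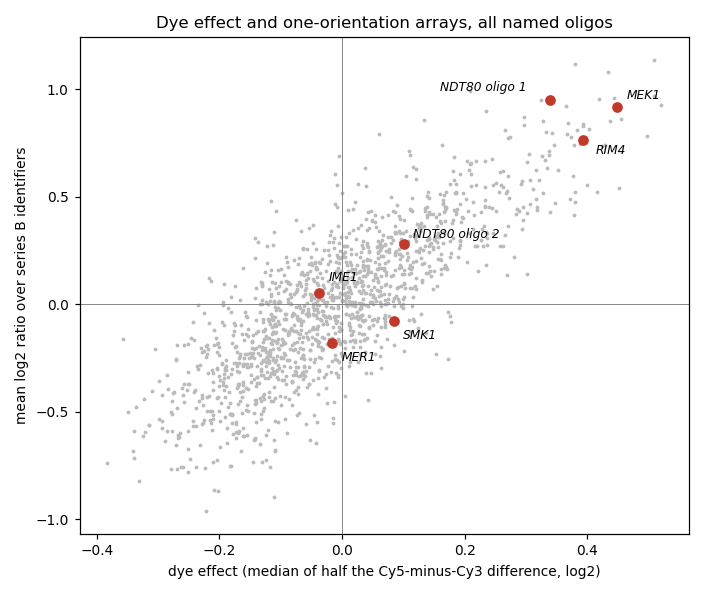
The x axis gives each named oligo's dye effect (log2, over 282 identifiers with both dyes) and the y axis its mean log2 ratio over the 28 identifiers of series B; grey points are all 1457 named oligos and red points the 7 member oligos. MEK1, RIM4 and NDT80 oligo 1 lie at the upper right with dye effects of 0.34 to 0.45, while IME1, MER1, SMK1 and NDT80 oligo 2 lie near the middle.

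Across the 76 of 195 groups that could be tested, the meiotic regulators rarely passed the test. The other groups had fewer than 2 usable identifiers. Group means were tested against 0 with limma over 76 groups, 185 replicate values and all 1457 named oligos, with Benjamini-Hochberg adjusted p under 0.05 as a call. Of 532 member and group pairs, 22 were called (4.14%), 21 higher and 1 lower, against 15.7% of all 110732 pairs of a named oligo and a group. MEK1 was called higher in 5 groups, NDT80 oligo 1 in 4, NDT80 oligo 2 in 4, RIM4 in 3, MER1 in 3, IME1 in 1 and SMK1 in 1, and IME1 was called lower in 1. Of the 22 calls, 21 rest on 2 or more identifiers, and 1, SMK1 in rapamycin, tests a single identifier with the spread of the other groups. In 17 of the 22 calls the identifier farthest from 0 had its value from 1 array only, and 13 of the 22 hold a series B array.

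A second setting, chosen after seeing the data, used for each oligo only identifiers with at least 3 of 6 copies measured in each dye orientation. It kept 164 replicate values over all groups and called 50 of 530 member and group pairs (9.43%), 47 higher and 3 lower, against 19.4% of all oligos. Of those 50 calls, 13 test 1 identifier, which is assumed to vary like the other groups. Among the 22 were 3 of the 50, namely IME1 in KCl at 10 min, NDT80 oligo 2 in rapamycin at 10 min, and NDT80 oligo 2 at 5 min of KCl with 3-AT, and both NDT80 calls rest on 1 identifier there. Below, values from this stricter setting are named as balanced, because they hold both dyes.

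Averaged over both dye orientations, RIM4 and NDT80 were slightly higher at 20 and 40 min of rapamycin, with ratios under 1 on the log2 scale. Scattered high values at 10 min rest on few spots for NDT80 oligo 1 and MER1, and on 1 identifier for SMK1. In these bulk samples, fewer cells with a transcript and less of it per cell cannot be told apart. With all identifiers, 5 of 28 member and time pairs were called, all higher, against 24.9% of all oligo and time pairs called in either direction and 11.3% called higher. Without the call of SMK1, which tests 1 identifier, there were 4. IME1 was not among them. Without series B, which holds no rapamycin array but enters the shared estimate of spread, 12 of the 28 were called, against 31.6%.

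IME1 measured 0.13, -0.02 and 0.16 at 20 min and 0.02 and -0.15 at 40 min of rapamycin, so its identifiers lay on both sides of 0. RIM4 measured -0.77 and -0.23 at 5 min, and 0.15, 0.32 and 0.54 at 20 min, and 0.25 and 0.17 at 40 min. Its identifiers were below 0 early and, as means of both orientations, above 0 late. With the treated RNA in Cy3, RIM4 measured -1.01, -0.03 and 0.41 at 20 min and 0.005 and -0.30 at 40 min. In Cy5 all RIM4 values at these times were above 0, so the late sign of RIM4 differed between the dyes in some identifiers. At 20 min its mean of 0.34 was not called with all identifiers (limma adjusted p = 0.199), and it was called in the balanced setting (0.34, adjusted p = 0.00411, n = 3), where 30.6% of all oligo and time pairs of the rapamycin course were called.

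NDT80 oligo 1 measured 0.47, 0.35 and 0.61 at 20 min and 0.34 and 0.43 at 40 min of rapamycin. Oligo 2 of the same gene measured 0.10, 0.25 and 0.19 at 20 min and 0.12 and 0.16 at 40 min. As means of both orientations, both oligos were above 0 in every identifier at these times, oligo 1 by more. With the treated RNA in Cy3, oligo 1 measured -0.79, -0.18 and 0.63 at 20 min and -0.19 and -0.08 at 40 min. Oligo 2 in Cy3 measured -0.67, 0.03 and 0.17 at 20 min and -0.37 and -0.004 at 40 min. In Cy5 they ran from 0.58 to 1.73 and from 0.21 to 0.87. In the balanced setting oligo 1 averaged 0.48 (SE 0.10, n = 2, limma adjusted p = 7.79e-05) at 20 min and 0.38 (adjusted p = 0.00168) at 40 min, and oligo 2 averaged 0.22 (adjusted p = 0.0287) at 20 min. With all identifiers oligo 1 was not called at either time (0.48, adjusted p = 0.184, and 0.38, adjusted p = 0.503).

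At 10 min of rapamycin, NDT80 oligo 1 was called at 1.55 ± 1.96 (SD, n = 2, limma adjusted p = 0.000322) from 1 identifier at 2.93 and another at 0.17. The higher value came from 1 copy on 1 array, and the other identifier had 1.19 in the Cy5 and -0.86 in the Cy3 orientation. NDT80 oligo 2 was called at 0.48 at that time (adjusted p = 0.0137), and the balanced setting called it from 1 identifier at 0.34 (adjusted p = 0.0312). The 2 oligos of NDT80 were thus both called at 10 min, at sizes that differ by over 1 on the log2 scale.

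MER1 averaged 0.77 ± 0.11 (SD, n = 2, SE 0.21) at 10 min of rapamycin and was called (limma adjusted p = 0.00483), from identifiers with 2 and 4 of 12 copies. At 20 min it was called at 0.71 ± 1.12 (n = 3, adjusted p = 0.000528) from identifiers at 2.00, 0.08 and 0.05, of which the high one was measured in 1 copy. At 40 min it measured -0.10 and -0.08. The high 20 min mean of MER1 therefore rests on a single spot.

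MEK1 measured 0.07, 0.16 and 0.36 at 20 min and 0.16 and 0.21 at 40 min of rapamycin, with a balanced mean of 0.20 at 20 min (limma adjusted p = 0.0166) and 0.20 with all identifiers (adjusted p = 0.526). SMK1 was called at 10 min from 1 identifier, tested with the spread of the other groups, at 1.56 (adjusted p = 8.65e-06), whose arrays held 6 copies at 1.41 and 1 copy at 1.72. At 20 min SMK1 measured 0.71, 0.05 and 0.10, and at 40 min -0.37 and 0.06. Of these late SMK1 values only the -0.37 lay below 0. Both the 0.71 and the -0.37 came from a Cy3 array alone, without the other orientation.

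**Figure D2:**
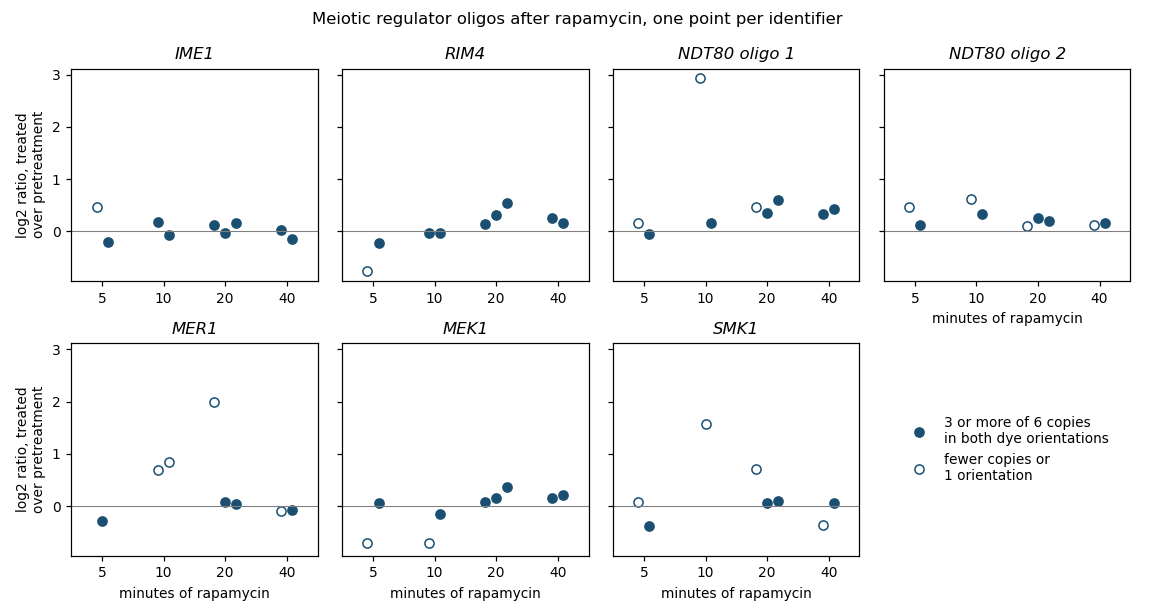
Each panel gives 1 member oligo, with minutes of rapamycin on the x axis and the log2 ratio over pretreatment on the y axis; 1 point is 1 identifier, filled where both dye orientations had 3 or more of 6 copies. The filled RIM4 and NDT80 points at 20 and 40 min are all above 0, and the values near 2 or above are open points of MER1 and NDT80 oligo 1.

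RIM4 and NDT80 oligo 1 had the same late sign when rapamycin was combined with other conditions. Cells with rapamycin were set over cells without it at 20 and 40 min in 11 identifiers, from the wild type, from 3-AT with rapamycin over cells before treatment, from rapamycin with TBB over TBB at 0 min, and from the ckb1ckb2 strain over its untreated cells. In the 3-AT arrays both agents differ from the control. RIM4 was above 0 in 11 of 11 (0.04 to 0.54, median 0.31) and NDT80 oligo 1 in 11 of 11 (0.03 to 0.61, median 0.41). Of all named oligos, 15.9% were above 0 in as many, so this agreement in sign was shared by many oligos. MEK1, NDT80 oligo 2 and SMK1 were above 0 in 10 of 11, as were 25.9% of named oligos. MER1 was above 0 in 8 of 11 (40.2%) and IME1 in 7 of 11 (48%). At 5 and 10 min, over 10 identifiers, RIM4 was above 0 in 3 and MEK1 in 4, whereas NDT80 oligo 1 was above 0 in 9.

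The 4 rapamycin identifiers whose direction is unsettled gave, as labelled and in order of time, -0.18, -0.23, -0.34 and -0.26 for RIM4. For NDT80 oligo 1 they gave 0.07, -0.12, -0.11 and -0.21. The RIM4 values have the opposite sign to the settled identifiers at 20 and 40 min.

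Removal of glucose gave the most member calls, 9 of 28 pairs and all higher, against 35% of all oligo and time pairs called in either direction and 18.7% called higher. The 9 calls were of RIM4, NDT80 and MEK1. Each time had 2 identifiers, 1 from series B and 1 from series F, and the calls followed the series B value.

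RIM4 in glucose depletion at 5, 10, 20 and 40 min measured 2.06, 2.35, 0.91 and 1.02 in series B, and 0.10, -0.04, 0.04 and 0.32 in series F. NDT80 oligo 1 measured 2.33, 3.06, 0.99 and 1.38 in series B, and -0.24, -0.09, 0.04 and 0.12 in series F. MEK1 measured 2.17, 1.69, 1.17 and 0.54 in series B, and 0.25, 0.19, 0.15 and 0.26 in series F. For these 3 oligos the series B value was the higher one at every time.

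The called means were 1.08 ± 1.38 (SD, SE 0.25, limma adjusted p = 0.000293) for RIM4 at 5 min, 1.16 (adjusted p = 9.63e-05) at 10 min and 0.67 (adjusted p = 0.0267) at 40 min. MEK1 was called at 1.21 ± 1.36 (SE 0.27, adjusted p = 0.000202) at 5 min, 0.94 (adjusted p = 0.00393) at 10 min and 0.66 (adjusted p = 0.0487) at 20 min. NDT80 oligo 1 was called at 1.05 ± 1.82 (SE 0.34, adjusted p = 0.012) at 5 min and 1.48 ± 2.23 (adjusted p = 0.000292) at 10 min, and oligo 2 at 0.86 (SE 0.15, adjusted p = 1.92e-06) at 10 min. The standard deviation between the 2 identifiers exceeded the mean in all of these calls except RIM4 at 40 min. None of the 9 was called without series B or in the balanced setting, where 17.6% and 22.6% of all oligo and time pairs were called. Both settings left the series F identifier alone at each time, so they cannot show how replicates vary. Why series B and F differ was not tested. The glucose arrays of series B lacked 28.9% to 31.9% of their spots, and NDT80 oligo 1 had 1 copy on them at 5 and at 10 min.

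IME1, which had almost no dye effect, measured -0.01, -0.31 and -0.23 at 5, 10 and 20 min of glucose depletion in series B. In series F it measured 0.23, 0.16, 0.20 and 0.24 at 5, 10, 20 and 40 min, and it was not called at any time. NDT80 oligo 2 was high in series B at 10 min alone, at 1.78, against 0.08, -0.03 and 0.17 at the other times and -0.05 to 0.11 in series F.

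Amino acid depletion gave 2 calls of 28, against 22.1% of all oligo and time pairs. MEK1 was called at 5 min (0.81 ± 1.10, limma adjusted p = 0.0344) from 1.58 in series B and 0.03 in series A, and NDT80 oligo 2 at 40 min (0.37 ± 0.24, adjusted p = 0.0499) from 0.54 in series B and 0.20 in series A. RIM4 at 5, 10, 20 and 40 min measured 1.20, 1.03, 0.85 and 0.67 in series B, and -0.38, -0.28, 0.31 and 0.13 in series A. NDT80 oligo 1 measured 1.73, 1.41, 1.11 and 1.28 in series B, and -0.30, -0.05, 0.49 and 0.38 in series A. In series A both were below 0 at 5 and 10 min and above 0 at 20 and 40 min. Both calls were lost without series B, with series B corrected for the dye effect, with the array series as a random block and in a fit to the course alone, each of which gave 0 calls. Other settings gave up to 11. MER1 gave 0.54, 0.47, 0.47 and 0.50 in series A, above 0 in 4 of 4, as were 23.9% of named oligos. In series B it had a value in 1 identifier, at -0.15.

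**Figure D3:**
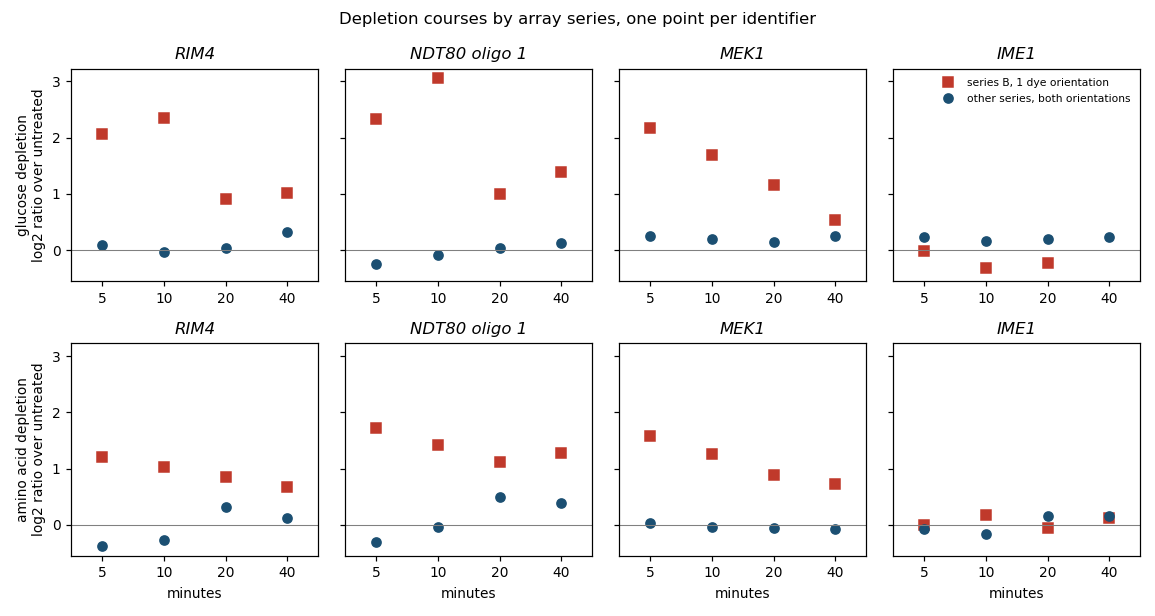
Panels give RIM4, NDT80 oligo 1, MEK1 and IME1 in glucose depletion (top) and amino acid depletion (bottom), with minutes on the x axis and the log2 ratio over untreated cells on the y axis. Red squares are series B, with 1 dye orientation, and blue circles the other series, with both; the squares lie above the circles for RIM4, NDT80 oligo 1 and MEK1 at every time, and on both sides of them for IME1.

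Nitrogen depletion, the classical signal for sporulation, gave no call of a member, and no call of any named oligo (0%) at 5 and 10 min, the times with 2 identifiers. No member reached an unadjusted p under 0.05, and the lowest limma adjusted p was 0.997. RIM4 was the one member above 0 in all 6 settled identifiers, with 0.13 and 0.55 at 5 min, 0.06 and 0.42 at 10 min, 0.76 at 20 min and 0.47 at 40 min. Of all named oligos, 8.37% were above 0 in all 6. With 3-AT added to nitrogen depletion, RIM4 ranged from -0.53 to 0.17.

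In histidine depletion no member was called in the his3 strain, which cannot make histidine, where group means ran from -0.26 to 0.22, or in the HIS3 strain, where they ran from -0.14 to 0.09. The backgrounds were 1.96% and 0% of oligo and time pairs, no member had an unadjusted p under 0.05, and the lowest limma adjusted p were 0.63 and 0.997. The difference of his3 minus HIS3 was not called for any member at 20 or 40 min, against 0.48% and 0.961% of named oligos. Inositol depletion gave no call with all identifiers (background 0.103%, no unadjusted p under 0.05), with RIM4 between 0.02 and 0.20 and above 0 in 8 of 8 identifiers. Phosphate depletion had 1 identifier per time and no test. There IME1 measured -0.35, -0.32, 0.12 and -0.24 and RIM4 0.15, 0.32, 0.09 and 0.05 at 5, 10, 20 and 40 min. The settled RIM4 values were thus above 0 in the nitrogen, inositol and phosphate courses, without a call with all identifiers. The share of named oligos with the same signs is given for nitrogen depletion alone. These signs are therefore not read as particular to RIM4.

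IME1 was higher in 1 M KCl at 10 min, by a call that depends on the setting. It measured 0.06, 0.30 and 0.48 at 5 min, -0.02, 0.38, 0.36 and 0.52 at 10 min, 0.13, 0.26, 0.39 and 0.06 at 20 min, and -0.30, 0.01, 0.22 and 0.04 at 40 min. Values were above 0 in 10 of the 11 identifiers up to 20 min. IME1 at 10 min (0.31 ± 0.23 SD, SE 0.11, n = 4, limma adjusted p = 0.0215) was the 1 call of 28 in the course, where 35.1% of all oligo and time pairs were called. In the balanced setting IME1 was called at 5 min (0.28, adjusted p = 0.00252), 10 min (0.31, adjusted p = 0.0001) and 20 min (0.21, adjusted p = 0.00884), against 48.9%. That setting also called other members in KCl, which are counted in the closing section. The call with all identifiers was lost without any 1 of the 3 identifiers above 0.3 (means of 0.24 to 0.29), and with the array series as a random block (0.24, adjusted p = 0.0903), where no member was called in KCl. IME1 was thus one of many oligos that moved in KCl, by a small amount.

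RIM4 lay below 0 in KCl in nearly all identifiers. Over 36 identifiers from 5 strains, 16 of the wild type, 8 of hog1 (without the osmotic stress MAP kinase), and 4 each of rrp6, edc2 and ckb1ckb2, RIM4 was below 0 in 35 (-0.37 to 0.11, median -0.23), and 12.5% of named oligos were below 0 in at least as many. IME1 was above 0 in 31 of 36, as were 25.3% of named oligos, and MEK1 was below 0 in 29. In hog1 cells RIM4 was below 0 in 8 of 8 and IME1 above 0 in 8 of 8, whereas IME1 was below 0 in 3 of 4 identifiers of the ckb1ckb2 strain. These counts by strain are given without the share of all named oligos and are a description only. No RIM4 mean was called in KCl with all identifiers. The difference of hog1 minus the wild type was not called for any member at any time, against 0% of named oligos at 5, 10 and 20 min and 0.618% at 40 min.

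**Figure D4:**
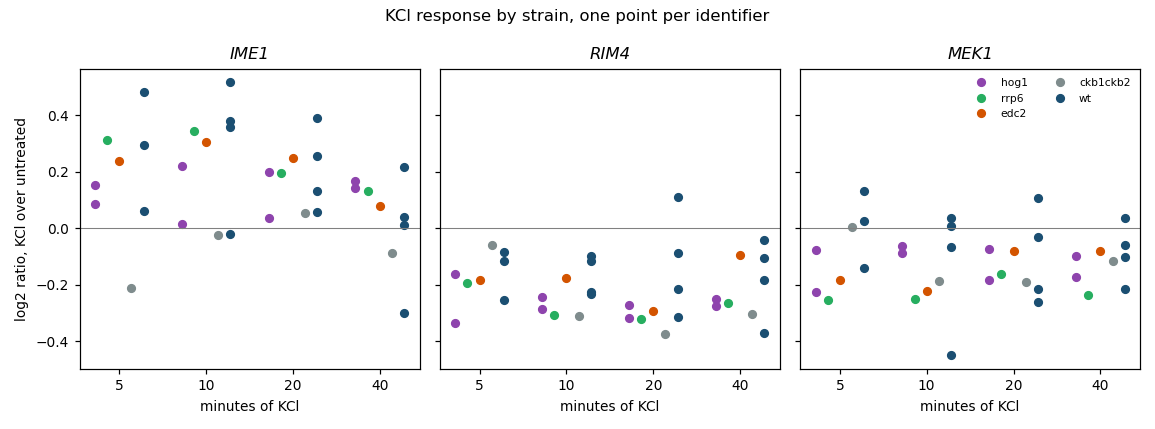
Panels give IME1, RIM4 and MEK1 in 1 M KCl, with minutes on the x axis and the log2 ratio over untreated cells of the same strain on the y axis; 1 point is 1 identifier, coloured by strain. IME1 lies mostly above 0 except in ckb1ckb2 cells, and RIM4 lies below 0 apart from 1 wild-type point at 20 min.

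In 300 mM LiCl the single call of 28 was NDT80 oligo 1 at 20 min, at 0.99 ± 1.61 (SD, SE 0.28, n = 3, limma adjusted p = 0.00245), against 32.5% of all oligo and time pairs. Its identifiers measured 2.84, 0.18 and -0.04, and the high one came from 2 copies on 1 array that lacked 64.1% of its spots. The difference of LiCl minus KCl was called for the same oligo at 20 min (1.10, SE 0.37, adjusted p = 0.0138, background 35.8%) and includes the same value. LiCl and KCl have 1 array series in common, and with the series as a fixed block the difference was 1.36 (adjusted p = 0.000555), and MEK1 was called too, at 0.67 (adjusted p = 0.00344). With all identifiers and no block, no member was called at 40 min (37.1%). The balanced setting called other members in LiCl, against 40.9%, namely NDT80 oligo 2 at 5 min (0.29, adjusted p = 0.000459) and 10 min (0.22, adjusted p = 0.00789), MER1 at 20 min (0.52, adjusted p = 0.00188) and MEK1 at 20 min (0.34, adjusted p = 0.000643) and 40 min (0.22, adjusted p = 0.0288). These balanced values were all higher than in untreated cells.

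No member was called with all identifiers in NaCl (background 11.8%, no unadjusted p under 0.05), heat shock (24.8%, 4 pairs with an unadjusted p under 0.05), 3-AT (9.57%, 1 pair) or SMM (6.07%, 1 pair). In heat shock outside series B, MEK1 was above 0 in 8 of 8 identifiers (0.11 to 0.59, median 0.40) and RIM4 in 8 of 8 (0.12 to 0.40), as were 29.9% of named oligos. In SMM, MEK1 measured 0.77 to 1.09 in series B and -0.11 to 0.01 in the other series. DTT, with 1 identifier per dose and time, gave MEK1 values of 0.00, -0.06, 0.15 and 0.36 at 1 mM and 0.07, 0.15, 0.84 and 0.41 at 10 mM, at 5, 10, 20 and 40 min. They were above 0 in 7 of 8, as were 22.7% of named oligos.

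In 3-AT, which starves cells of histidine, IME1 and RIM4 lay mostly below 0 early and above 0 late, by small amounts. At 5 and 10 min over 12 identifiers of several strains, MEK1 was below 0 in 11, as were 15.4% of named oligos, and IME1, RIM4 and NDT80 oligo 2 in 10 each, as were 24.4%. MER1 was above 0 in 8 of these 12 and SMK1 in 7. At 20 and 40 min over 11 identifiers, NDT80 oligo 1 was above 0 in 10 (median 0.36), RIM4 in 10 (median 0.16) and MER1 in 10 (median 0.22), as were 24.7% of named oligos, whereas MEK1 was below 0 in 6 of 11. The balanced setting called NDT80 oligo 1 in the wild type at 20 min (0.29, limma adjusted p = 0.0059) and 40 min (0.32, adjusted p = 0.0185). Among its other calls, against 20.1%, were IME1 at 20 min (0.21, adjusted p = 0.0409) and, lower, MEK1 at 10 min (-0.23, adjusted p = 0.0123). Wortmannin gave RIM4 values of 0.04 to 0.33 and MEK1 values of 0.10 to 0.27 over 7 identifiers, all above 0, as were 18.1% of named oligos.

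RIM4 and MEK1 were higher in 3-AT with TBB than in 3-AT alone, in the balanced setting. In 3-AT over its own control at 5 and 10 min, RIM4 was below 0 in 10 of 12 identifiers and MEK1 in 11. Ratios over 3-AT alone do not show whether either oligo rose over cells without 3-AT. The identifiers turned by their labels (described with the directions above) give the first value at 5, 10 and 20 min and the value at 40 min. Set over 3-AT alone, 3-AT with TBB gave RIM4 values of 0.72 and 0.46 at 5 min, 0.46 and 0.51 at 10 min, 0.56 at 15 min, 0.41 and 0.60 at 20 min and 0.58 at 40 min. MEK1 gave 0.91 and 0.62, 0.47 and 0.67, 0.44, 0.45 and 0.33, and 0.20 at the same times. Both were above 0 in 8 of 8, in the 4 turned identifiers and in the other 4, as were 15.6% of named oligos. The balanced setting called RIM4 at 5 min (0.59, limma adjusted p = 0.000179) and 20 min (0.50, adjusted p = 0.00156) and MEK1 at 5 min (0.76, adjusted p = 3.82e-11) and 20 min (0.39, adjusted p = 0.000415), against 23.4% of named oligos at 5 min and 22.9% at 20 min. With all identifiers the adjusted p at 5 and 20 min were 0.107 and 0.194 for RIM4 and 0.055 and 0.405 for MEK1, against 9.4% and 10.8% of named oligos called.

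TBB alone over cells before treatment, with 1 identifier per time, gave RIM4 values of the other sign, -0.20, -0.24, -0.15 and -0.07 at 5, 10, 20 and 40 min. Set over the partner agent alone, KCl with TBB gave RIM4 values of -0.06 to -0.02, below 0 in 4 of 4 identifiers, as were 8.79% of named oligos. Rapamycin with TBB over rapamycin gave RIM4 values of -0.20 to 0.11, below 0 in 3 of 4, as were 38.2%. Beside KCl the values were thus close to 0, and beside rapamycin they lay on both sides of it.

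At 0 min, 3-AT with TBB over cells before treatment gave the lone call of a lower member, IME1 at -0.84 ± 1.09 (SD, limma adjusted p = 3.89e-05), and a call of MER1 at 1.01 ± 0.97 (adjusted p = 0.000275), against 11.1% of named oligos. The identifiers were -1.61 and -0.07 for IME1 and 1.70 and 0.32 for MER1, and the identifier farther from 0 included an array at -3.12 for IME1 and at 2.94 for MER1, each from 1 copy. The remaining calls were in KCl with 3-AT over untreated cells, of MEK1 at 10 min (1.32 ± 2.03, from 2.75 in series B and -0.11 in series E, adjusted p = 4.01e-05, background 34.8%) and NDT80 oligo 2 at 5 min (0.70, from 1.00 in series B and 0.40 in series E, adjusted p = 0.000234, background 23.5%). The balanced setting also called NDT80 oligo 2 there, from the series E identifier alone, which is assumed to vary like the other groups.

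MER1 was higher, and RIM4 and IME1 lower, in the rrp6 strain, which lacks a nuclear exosome subunit that degrades many RNAs, than in the wild type. The 13 identifiers, all in series I with 1 per condition, covered cells before treatment and cells in KCl, LiCl and rapamycin, so no test was made within a condition. MER1 averaged 0.31 ± 0.25 (SD over 13 identifiers) and was above 0 in 12. It measured 0.41 before treatment, 0.11, 0.48, 0.32 and 0.55 in KCl, 0.31, 0.03, 0.08 and -0.16 in LiCl, and 0.73, 0.57, 0.43 and 0.13 in rapamycin. The lowest MER1 values were in LiCl and the highest in rapamycin, and 9.75% of named oligos were above 0 in at least 12 of 13.

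RIM4 averaged -0.30 ± 0.16 in rrp6 over wild-type cells and was below 0 in 13 of 13, as were 6.25% of named oligos. IME1 averaged -0.19 and was below 0 in 12, as were 14.2%. NDT80 oligo 1 averaged -0.22 and was below 0 in 11, MEK1 averaged -0.15, SMK1 -0.12 and NDT80 oligo 2 -0.04. MER1 was the one member with a mean above 0.

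**Figure D5:**
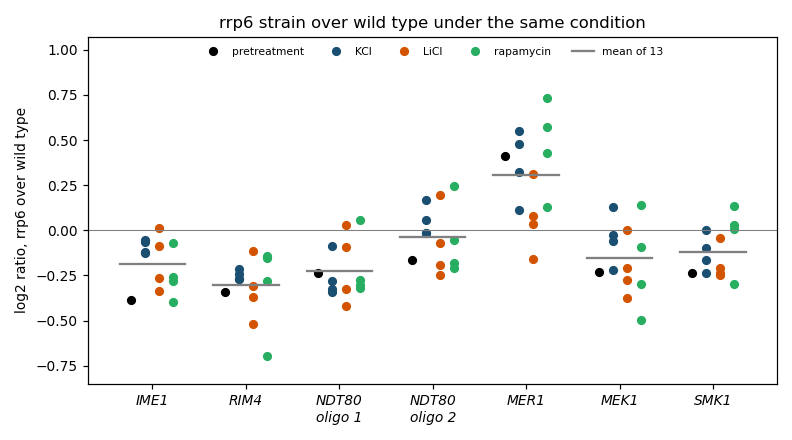
The y axis gives the log2 ratio of the rrp6 strain over the wild type under the same condition for each member oligo; 1 point is 1 of 13 identifiers, coloured by condition, and the line is their mean. MER1 has a mean of 0.31 with 1 point below 0, and all 13 RIM4 points are below 0.

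Over the 76 group means, RIM4 and MEK1 were the members most alike, with a Pearson correlation of 0.837, or 0.712 without series B. NDT80 oligo 1 correlated with RIM4 at 0.586 and with MEK1 at 0.489, and without series B at 0.243 and -0.0372. The 2 NDT80 oligos correlated at 0.533, and IME1 and RIM4 at -0.0671. The named oligos outside the members with the most similar pattern were RPL34B oligo 2 (0.877), PDR1 (0.861) and RNP1 (0.852) for MEK1, and GFD1 (0.866), BNA7 (0.864) and REG2 (0.855) for RIM4. NDT80 oligo 1 was closest to RAD14 oligo 3 (0.775), PIP2 (0.751) and HMI1 (0.749), and oligo 2 to BOS1 oligo 2 (0.611), MAK32 (0.6) and PCH2 oligo 2 (0.572). IME1 was closest to ACA1 (0.564), RRN9 (0.55) and SET2 (0.531), MER1 to HOT1 (0.567), RCF3 (0.55) and HOS1 (0.519), and SMK1 to UBC5 oligo 1 (0.596), RPS25A oligo 3 (0.528) and HOT1 (0.517). These points share arrays, dyes and controls.

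Some oligos of other genes of the meiotic programme were called in rapamycin. Apart from meiotic entry at 20 min, the meiotic lists were called higher at shares near or below that of all named oligos. At 20 min, where 252 of all 1457 named oligos were called higher (17.3%) and 292 lower, 5 of 11 oligos for meiotic entry were higher and 0 lower (median 0.18), and 5 of 23 for recombination and synapsis were higher and 2 lower (median 0.12). Of 11 oligos for middle and late sporulation and 7 for meiotic splicing, 1 each was higher at that time. Outside meiosis, 4 of 6 oligos for nitrogen catabolite repression (median 0.71) and all 4 for general stress (median 1.01) were higher. At 40 min 178 named oligos were called higher (12.2%) and 228 lower, with a median of 0.02. Of 11 oligos for meiotic entry 1 was higher and 0 lower (median 0.26), of 23 for recombination and synapsis 2 were higher and 1 lower (median 0.13), and of 11 for middle and late sporulation and 7 for meiotic splicing none was called. Those called were RME1, a repressor of IME1, at 1.13, DMC1 oligo 2, a strand exchange recombinase, at 1.18, and HOP2 oligo 3 at 0.83. HFM1 oligo 2 was called lower, at -0.41 (limma adjusted p = 0.0315). No other oligo of DMC1, HOP2 or HFM1 was called at this time. Of the other lists, 3 of 6 oligos for nitrogen catabolite repression were higher (ASP3-1 at 3.29, DAL80 at 1.13 and GAT1 at 0.48) and 3 of 4 for general stress (HSP104 at 2.38, SSA4 at 2.32 and SSA3 at 1.20), and none of 7 for mating type and haploid cells was called.

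At 40 min of glucose depletion 232 of 1457 named oligos were called higher and 301 lower. The means are again of 1 series B and 1 series F identifier, and the lists were not examined without series B. The meiotic lists were called higher at shares near or below that of all named oligos. In the meiotic lists, DMC1 oligo 2 (0.77), REC107 oligo 1 (0.46) and REC114 oligo 3 (0.45), all recombination genes, were higher among 23, SPR1 (0.58) among 11 for sporulation, MUD1 oligo 1 (0.31) among 7 for meiotic splicing, and YHP1 was lower (-0.32) among 11 for meiotic entry. All 4 general stress oligos were higher, with a median of 1.36. Of 7 oligos for mating type and haploid cells, MATALPHA1 (-0.96) and FUS3 (-0.74) were lower, and of 6 for nitrogen catabolite repression ASP3-1 (0.81) was higher. The SD between identifiers was 0.24 for DMC1 oligo 2, 0.16 for REC107 oligo 1 and 0.04 for REC114 oligo 3. It was 0.42 for YHP1, 0.64 for MATALPHA1 and 0.65 for FUS3.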

How the data were processed

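Total RNA was labelled during cDNA synthesis with aminoallyl-dUTP and coupled to Cy3 or Cy5, per the labels. The deposited table holds a log2 ratio per spot. Its base is not stated and was taken as 2, and centring, direction and background correction are not given in the sources used here. Array medians ran from -0.0391 to 0.0477. The table holds no intensities, so signal over background was not examined. Ratios were read as channel 1 over channel 2 and turned to treated over control by the labels, and the arrays' number limits the precision. The 6 copies of an oligo and then both dye orientations of an identifier were averaged. The table's annotation names genes but not whether an oligo lies in an exon, an intron or a junction, and no genome was used.

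Group means were tested with limma 3.58.1 in R 4.3.3 in 1 fit over 76 groups (residual df 109), two-sided, with Benjamini-Hochberg adjustment over 1457 oligos per comparison and a threshold of 0.05. The method was tested on simulated data. The members, gene lists and tests were chosen with earlier results of these data known. Other genes are named by rule: up to 4 oligos per list with the lowest adjusted p at 40 min of rapamycin and of glucose depletion, and the 3 most correlated oligos per member. Alternatives covered the copies, missing spots, centring, dyes, array series, identifiers of unsettled direction, the fit and leaving out each replicate.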

Additional observations from a re-analysis of the deposited data

Results flagged for a closer look

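In groups of 4 identifiers, 76 sets of values were examined for a value far from the other 3 by Dixon's test, and 4 were found, where chance gives about 1 in 20. All were in histidine depletion, where no member was called. RIM4 in the his3 strain at 40 min had 1 identifier at -0.385, against -0.01 to 0.07 in the others. SMK1 in the his3 strain at 5 min had 1 at -1.26, against 0.01 to 0.18 in the others. MEK1 in the his3 strain at 10 min had 1 at 0.062, against -0.07 to -0.05 in the others, and MEK1 in the HIS3 strain at 40 min had 1 at 0.088, against -0.01 to 0.00 in the others.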

How the results depend on the processing

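With all identifiers, the members were called 5 times in rapamycin, 9 in glucose depletion, 2 in amino acid depletion, 1 each in KCl, LiCl and LiCl minus KCl, and 0 elsewhere. Robust eBayes, the median of the copies and turning the 7 unsettled identifiers against their labels moved no count by over 1.5 times. Using them as labelled gave 3 calls in rapamycin and 1 in amino acid depletion, and centring each array gave 1 in amino acid depletion. The array series as a random block gave 0 in amino acid depletion, 0 in KCl, 3 in LiCl and 2 in LiCl minus KCl. A fit to each course alone gave 1 in rapamycin, 0 in amino acid and 0 in glucose depletion, 3 in KCl, 2 in LiCl, 1 in heat shock, 3 in 3-AT and 2 in LiCl minus KCl. At least 4 of 6 copies gave 10 in amino acid depletion, 0 in glucose depletion, 3 in KCl, 2 in LiCl, 5 in heat shock, 1 in 3-AT, 1 in SMM and 0 in LiCl minus KCl. Leaving out arrays that lack over 20% of spots gave 10 in amino acid depletion, 0 in glucose depletion, 4 in KCl, 2 in LiCl, 6 in heat shock and 1 in 3-AT. Arrays with the treated RNA in Cy5 alone gave 13 in rapamycin, 8 in amino acid depletion, 1 in inositol depletion, 1 in histidine depletion of his3, 2 in KCl, 2 in LiCl, 5 in NaCl, 5 in heat shock, 1 in SMM and 0 in LiCl minus KCl.

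Of the settings added after seeing the data, correcting series B for each oligo's dye effect gave 0 calls in amino acid depletion and 2 in LiCl. Leaving out series B gave 12 in rapamycin, 0 in amino acid depletion, 0 in glucose depletion, 4 in LiCl and 2 in LiCl minus KCl. The balanced setting gave 4 in amino acid depletion, 0 in glucose depletion, 1 in inositol depletion, 6 in KCl, 5 in LiCl, 1 in NaCl, 2 in heat shock, 5 in 3-AT and 3 in LiCl minus KCl. Leaving out each replicate in turn gave 2 to 5 in rapamycin, 0 to 11 in amino acid depletion, 0 to 12 in glucose depletion, 0 to 1 in KCl, 0 to 2 in LiCl, 0 to 1 in heat shock, 0 to 2 in LiCl minus KCl and 0 elsewhere, a lone sample being assumed to vary like the other groups. NDT80 oligo 1 in glucose depletion at 5 min measured -0.24 without series B, with at least 4 copies, without arrays that lack over 20% of spots and in the balanced setting, and -0.24 to 2.33 on leaving out either replicate. Under the same settings NDT80 oligo 1 in glucose depletion at 10 min measured -0.093 (replicates, -0.093 to 3.06), NDT80 oligo 2 in glucose depletion at 10 min measured -0.054 (replicates, -0.054 to 1.78), and RIM4 in glucose depletion at 10 min measured -0.038 (replicates, -0.038 to 2.35). For these reversals and the other changed counts, beyond what leaving out values shows, the cause was not tested. The replicate numbers follow accession order and pair no samples, but the strains and salts compared share array series. With the array series as a fixed replicate block, added after seeing the data, 0 members were called in his3 minus HIS3, 0 in hog1 minus wild type and 2 in LiCl minus KCl.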
